A study of Mus musculus with 8 samples.

Results

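The genes of the Nogo receptor system Rtn4, Omg, Rtn4r, Rtn4rl1, Rtn4rl2, Lingo1 and Lingo2, were followed in nuclear RNA of forebrain excitatory neurons from mice in pilocarpine-induced seizure and from mock-treated mice. They were taken by symbol, as Nogo, its receptors, the Lingo genes and Omg, and the set was chosen by a measured value, the low intronic reads of Rtn4r in Pilo against Mock libraries. All 7 of 7 were found among the 55471 genes of the exonic table keyed by Ensembl identifier and among the 18513 genes of the table keyed by Entrez identifier, which holds exonic and intronic reads separately. The Rtn4r values therefore led to the choice and are described with no test, while the other 6 genes were tested in fits across all genes.

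The 8 libraries came from male C57BL/6J mice of 6 to 8 weeks with the genotype CaMKIIalpha-Cre:SUN1-sfGFP. In these mice a GFP-tagged nuclear envelope protein is present where the CaMKIIalpha promoter has driven Cre recombinase, and tagged nuclei were pulled from forebrain homogenate with an anti-GFP antibody (the INTACT method). All mice received scopolamine methyl nitrate, a muscarinic antagonist, at 1 mg/kg, and 30 min later either pilocarpine hydrochloride, a muscarinic agonist, at 340 mg/kg (Pilo, 4 libraries) or saline (Mock, 4 libraries). Pilo mice were left to seize for 100 min and kept if their seizures scored 3 to 5 on the Racine scale, a selection that Mock mice did not undergo. Nothing in the labels ties each library to its own mouse, and p-values thus reflect only how these libraries vary, part of which may be technical.

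Nogo, the product of Rtn4, and the oligodendrocyte myelin glycoprotein, the product of Omg, are membrane proteins of myelin and neurons that stop growing axons. Their receptor NgR1, the product of Rtn4r, is a leucine-rich repeat protein held on the neuronal surface by a lipid anchor, and it signals through partners that cross the membrane, such as LINGO-1 with the p75 receptor or TROY, to the GTPase RhoA and its kinase ROCK. In adult forebrain this system is known for limiting axon sprouting and experience-dependent plasticity, and Rtn4r messenger RNA has been described to fall in hippocampal neurons after strong stimulation.

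Rtn4r has a simple structure. On GRCm38 (GENCODE vM21) the gene lies on chromosome 16 from 18127642 to 18152408 on the plus strand, with 2 exons of 1938 bp in all and a single intron of 22829 bp from 18127903 to 18150731. No other annotated gene overlaps it, and the nearest protein-coding genes are Prodh, 37439 bp before it, and Ccdc188, 65471 bp after it. The intron interrupts the coding sequence shortly after its start: the first coding base is base 240 of the transcript and the junction follows base 261. Rtn4rl2, the receptor homologue whose exonic reads rose, is on chromosome 2 from 84871924 to 84886710 on the minus strand, with introns of 5792 bp and 7692 bp. The junctions are printed because they mark where exonic reads end and intronic reads begin in the transcripts of these receptors; lower case is the end of an exon and capitals are the start of the next exon, read from GENCODE vM21 transcripts.
Rtn4r, exon 1 to exon 2: gggcgtcctccggagGAAGCAGGCTGCTGG
Rtn4rl2, exon 1 to exon 2: ggcgcctgctgcaagGTCCTGCCTCAGCCT
Rtn4rl2, exon 2 to exon 3: ctgctccatctacagGATGACTTGTTCGCG

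Promoter windows of 250 bases upstream of RefSeq gene starts (GRCm38.p6) were matched for 5 of the 7 genes. Windows of the 3 genes whose intronic reads separated the groups, as did those of 37.0% of all genes tested in introns, are printed, with each GC box (GGGCGG on either strand) in capitals; GC boxes can overlap each other.
Rtn4r, chr16:18127392-18127641, plus strand: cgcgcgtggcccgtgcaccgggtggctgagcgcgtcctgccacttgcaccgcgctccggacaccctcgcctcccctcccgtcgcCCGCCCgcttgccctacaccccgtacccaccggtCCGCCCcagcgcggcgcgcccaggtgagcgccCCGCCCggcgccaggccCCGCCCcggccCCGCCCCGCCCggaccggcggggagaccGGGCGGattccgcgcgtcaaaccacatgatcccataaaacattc
Rtn4, first of 3 windows, chr11:29692648-29692897, plus strand: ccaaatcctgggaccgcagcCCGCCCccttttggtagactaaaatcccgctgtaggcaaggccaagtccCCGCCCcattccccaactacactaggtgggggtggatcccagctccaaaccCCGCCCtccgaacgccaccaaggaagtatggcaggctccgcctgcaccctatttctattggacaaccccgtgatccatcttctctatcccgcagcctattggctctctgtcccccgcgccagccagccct
Lingo2, first of 2 windows, chr4:36718964-36719213, minus strand: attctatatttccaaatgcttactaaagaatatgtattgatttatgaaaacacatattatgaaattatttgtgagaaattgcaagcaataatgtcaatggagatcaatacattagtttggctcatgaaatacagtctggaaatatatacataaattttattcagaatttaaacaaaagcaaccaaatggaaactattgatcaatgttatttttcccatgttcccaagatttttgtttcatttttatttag

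The Rtn4r window held 7 GC boxes, 38 CG dinucleotides and 77.2% G or C. The Rtn4 window at its first annotated start held 3 GC boxes and 61.2% G or C, and the printed Lingo2 window held 0 GC boxes, 0 CG dinucleotides and 25.2% G or C. That Lingo2 window belongs to a RefSeq start inside the span that GENCODE gives the gene. GENCODE transcripts place it in an intron, directly before an internal exon that begins at base 36718963. Its letters therefore need not be those of a promoter. The second Lingo2 window, at chr4:35845205-35845454, lies before a GENCODE first exon and held 6 CG dinucleotides and 48.4% G or C. Among windows not printed, that of Rtn4rl2 held 73.6% G or C with 29 CG dinucleotides, and the 2 of Lingo1 held 72.8% and 70.4%. The second Rtn4 window held 76.8% and the third 39.2%. Over all 32851 windows, 32.7% held a GC box. The core of the cyclic AMP response element, TGACG, was found once in the Rtn4r window, on the minus strand from base -30 to base -26 before the start, and in 17.8% of all windows. The full element TGACGTCA (1.55% of windows), the AP-1 site TGANTCA (6.75%), the Egr site GCGNGGGCG (4.70%) and the E-box CACGTG (6.02%) had 0 matches on either strand of the Rtn4r window. These are matches of letters only and say nothing of binding.

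Total counts per library were 29356788 to 36161448 exonic reads in the Ensembl table, and 27135364 to 33715773 exonic and 11928054 to 16703475 intronic reads in the Entrez table. In each group, library 2 of either table matched library 3 of the other: deviations from the group mean correlated at 0.974 to 0.990 for the matched libraries and at -0.60 to -0.57 for those with the same number 2 or 3. Replicate numbers are therefore those of the table in question, and no value was combined across tables. The excitatory markers Slc17a7 (973 CPM, read counts scaled to a common library size, as the mean in Mock) and Camk2a (1325) were abundant, while the oligodendrocyte markers Mbp (133), Mag (17.0) and Mog (6.22) were also present. Markers of other cell types were detected as well, and 0 of the marker genes were at 0 in all libraries. Fewer nuclei of a type and less RNA per nucleus cannot be told apart in these bulk libraries.

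Intronic reads of Rtn4r were far fewer in Pilo than in Mock nuclei. In CPM of intronic reads, Mock 1 to 4 held 115, 147, 139 and 132, and Pilo 1 to 4 held 39.0, 31.4, 43.6 and 39.2. Every Pilo library lay far below every Mock library. The group means were 133 ± 13.5 CPM in Mock and 38.3 ± 5.05 CPM in Pilo (SD, n = 4), so that Pilo stood at 28.8% of Mock, 3.47-fold lower. These levels rested on 1611, 2513, 1910 and 1891 intronic reads in Mock 1 to 4 and on 544, 367, 551 and 470 in Pilo 1 to 4. The fitted log2 change was -1.80 (SE 0.12), the 52nd lowest of 13318 genes with intronic reads enough to be tested. Leaving out each library in turn kept it between -1.86 and -1.71.

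The exonic reads of Rtn4r, which come from spliced and unspliced RNA alike, differed much less between the groups. In the Ensembl table Mock 1 to 4 held 79.8, 92.6, 85.5 and 82.7 CPM, and Pilo 1 to 4 held 82.5, 67.0, 71.2 and 70.5. Pilo 1 lay inside the Mock range and the other 3 Pilo libraries lay below it. The means were 85.1 ± 5.48 in Mock and 72.8 ± 6.72 in Pilo (SD, n = 4), a log2 change of -0.23 (SE 0.08), and Entrez counts gave -0.25 (SE 0.08). Exonic minus intronic log2 change was 1.55 (SE 0.11), the 9th highest of 13047 genes, with values of 1.44 to 1.65 as each library was left out.

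**Figure D1:**
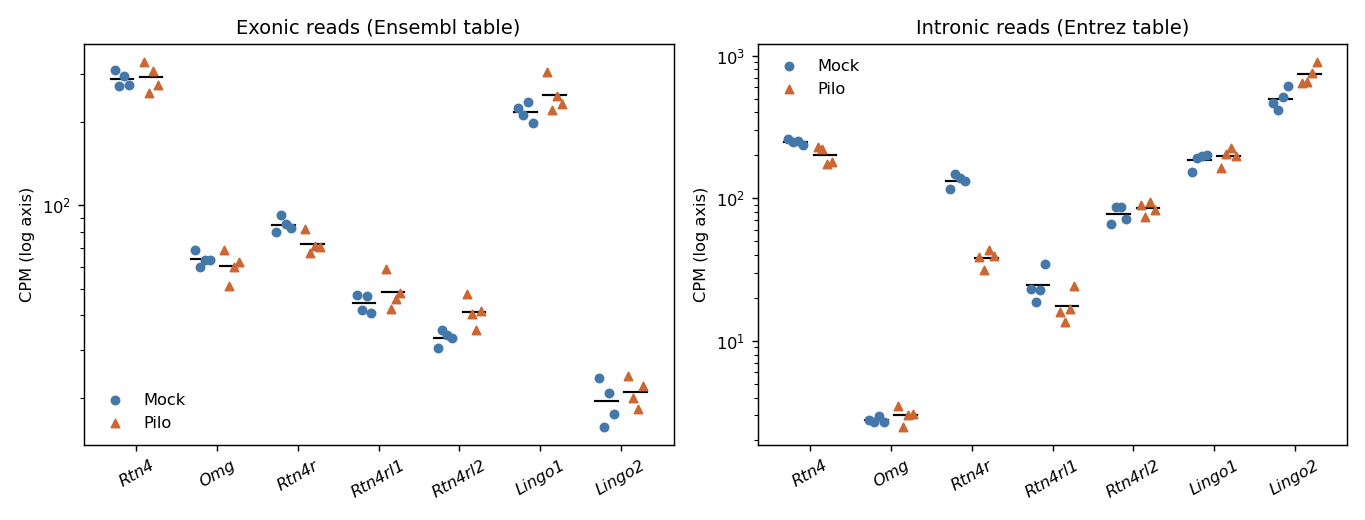
Levels of the 7 genes in each library on log axes, as exonic CPM (Ensembl table, left) and as intronic CPM (Entrez table, right); circles are Mock, triangles are Pilo and bars are group means. The 4 Pilo libraries lie at 31.4 to 43.6 intronic CPM for Rtn4r, below the 4 Mock libraries at 115 to 147, and exonic levels of each gene overlap between the groups.

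The balance of the regions within each library uses the same intronic reads that led to the choice, with no scaling between libraries. Rtn4r had 0.670, 0.784, 0.661 and 0.767 intronic reads per exonic read in Mock 1 to 4, and 0.188, 0.165, 0.268 and 0.221 in Pilo 1 to 4 (Entrez table). The means were 0.721 ± 0.0639 and 0.211 ± 0.0450 (SD, n = 4), or 41.8% ± 2.16 and 17.3% ± 3.04 of the gene's reads in introns. Over all genes the ratio was also lower in Pilo, at 0.412 to 0.441 against 0.468 to 0.507 in Mock, a much smaller difference. Rtn4r thus went from above the all-gene ratio in every Mock library to below it in every Pilo library.

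Among the ligands, Rtn4 itself had fewer intronic reads after pilocarpine and level exonic reads. Rtn4 is on chromosome 11 from 29692947 to 29744331, plus strand, and encodes the Nogo isoforms; 1284 bp of its exons overlap Eml6 on the opposite strand, and whether the counting used strand is not given in the sources used here. Its intronic level was 258, 248, 250 and 238 CPM in Mock 1 to 4 and 227, 222, 172 and 180 CPM in Pilo 1 to 4. The groups did not overlap, and Pilo 3 and Pilo 4 were the lowest. Intronic Rtn4 fell by 0.31 on the log2 scale (SE 0.10, edgeR quasi-likelihood test, adjusted p = 0.0255), from 248 ± 8.34 to 200 ± 28.2 CPM (SD, n = 4). The call was lost without Mock 1 (adjusted p = 0.0649), Pilo 3 (0.0894) or Pilo 4 (0.0919).

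Exonic Rtn4 was 310, 271, 295 and 272 CPM in Mock 1 to 4 and 330, 256, 307 and 273 in Pilo 1 to 4, with the groups interleaved. The exonic log2 change of Rtn4 was 0.02 (SE 0.09, adjusted p = 0.885). Exonic minus intronic change of Rtn4 was 0.31 (SE 0.06, adjusted p = 0.0026), and it passed the test in 8 of 8 fits that left out a library (adjusted p 0.0048 to 0.0125). Each Mock library had 0.384 to 0.422 intronic reads per exonic read of Rtn4 and each Pilo library 0.263 to 0.279.

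Omg, the other ligand among the 7 genes, did not pass any test. It lies on chromosome 11 from 79500982 to 79504084, minus strand, wholly inside Nf1 on the opposite strand. Exonic Omg was 69.2, 59.6, 63.4 and 63.2 CPM in Mock 1 to 4 and 68.8, 51.3, 59.8 and 62.2 in Pilo 1 to 4, overlapping ranges with Pilo 2 lowest. Its exonic log2 change was -0.08 (SE 0.09, adjusted p = 0.563). Intronic Omg rested on only 29 to 49 reads a library, at 2.79, 2.69, 2.98 and 2.71 CPM in Mock and 3.51, 2.48, 3.01 and 3.09 CPM in Pilo. Its intronic log2 change was 0.12 (SE 0.22, adjusted p = 0.694). Nf1, whose reads could be counted here if strand was not used, had an intronic log2 change of 0.42 (adjusted p = 0.0141).

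Of the receptor homologues, Rtn4rl2 rose in exons and Rtn4rl1 was lower in introns without passing the test. Rtn4rl2 encodes NgR2, a surface receptor that binds the myelin-associated glycoprotein. Its exonic level was 30.5, 35.3, 33.9 and 33.2 CPM in Mock 1 to 4 and 48.0, 40.5, 35.3 and 41.4 in Pilo 1 to 4. The lowest Pilo library, Pilo 3, met the highest Mock library at 35.3 CPM and the other 3 Pilo libraries lay above all Mock libraries. Exonic Rtn4rl2 rose from 33.2 ± 2.04 to 41.3 ± 5.21 CPM (SD, n = 4), a log2 change of 0.31 (SE 0.09, adjusted p = 0.0224). Entrez counts gave 0.29 (SE 0.09, adjusted p = 0.0339).

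The exonic call of Rtn4rl2 was sensitive to single libraries. With Ensembl counts it was lost without Mock 1 (adjusted p = 0.0589), Pilo 1 (0.0579) or Pilo 4 (0.0530). With Entrez counts it was lost without Mock 1 (0.0998), Mock 2 (0.0565), Mock 4 (0.0701), Pilo 1 (0.0835), Pilo 3 (0.0519) or Pilo 4 (0.0749). Its intronic level overlapped between the groups, at 66.1, 87.0, 86.3 and 71.8 CPM in Mock and 88.9, 73.2, 94.0 and 82.8 CPM in Pilo, a log2 change of 0.12 (SE 0.12, adjusted p = 0.424). The exonic minus intronic change of 0.16 (SE 0.09, adjusted p = 0.206) did not show that the regions of Rtn4rl2 differed.

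Rtn4rl1 encodes the homologue NgR3 and lies on chromosome 11 from 75193783 to 75267769, plus strand, with an intron of 70462 bp and no overlapping gene. Its intronic reads were 22.9, 18.7, 22.7 and 34.3 CPM in Mock 1 to 4 and 15.8, 13.6, 16.7 and 24.0 in Pilo 1 to 4. Libraries numbered 4 were highest in both groups, and Pilo 4 lay above 3 of the Mock libraries. The intronic log2 change was -0.49 (SE 0.20, adjusted p = 0.0570) between means of 24.6 ± 6.72 and 17.5 ± 4.51 CPM (SD, n = 4). It passed the test without Mock 2 (adjusted p = 0.0297) or Pilo 4 (0.0127), and in the fit with a replicate block (-0.49, adjusted p = 0.000534).

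Exonic reads of Rtn4rl1 overlapped between the groups, at 47.4, 41.6, 47.1 and 40.6 CPM in Mock and 58.8, 42.1, 45.8 and 48.3 CPM in Pilo, with Pilo 1 the highest. The exonic log2 change was 0.14 (SE 0.10, adjusted p = 0.326). Exonic minus intronic change of Rtn4rl1 was 0.59 (SE 0.24, adjusted p = 0.0968) and passed without Pilo 4 (adjusted p = 0.0360), under DESeq2 (0.0462), and with the replicate block (0.61, adjusted p = 4.09e-05).

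**Figure D2:**
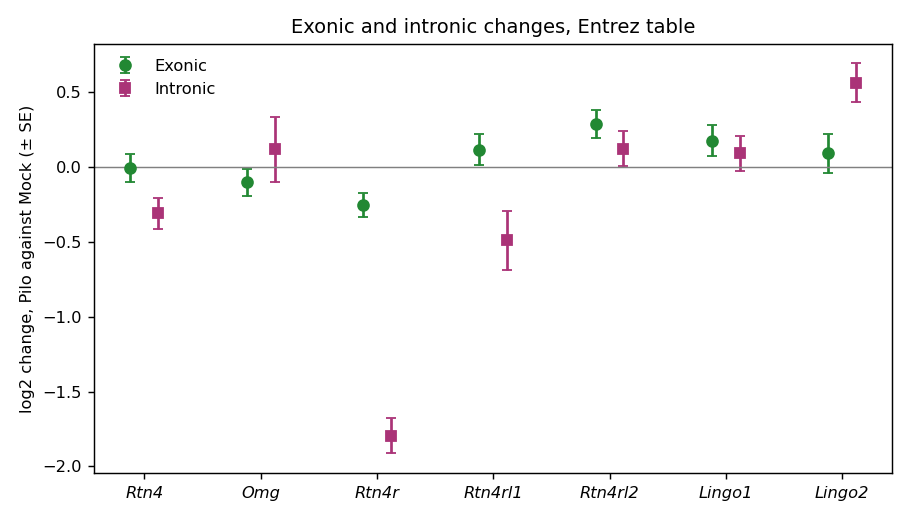
Log2 change of each gene, Pilo against Mock, in exons (circles) and introns (squares) of the Entrez table, with bars of 1 SE; the line marks no change. Rtn4r stands at -1.80 in introns and -0.25 in exons, Rtn4 and Rtn4rl1 are lower in introns than in exons, and Lingo2 is higher in introns.

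The Lingo genes encode transmembrane proteins with leucine-rich repeats, of which LINGO-1 joins the receptor complex. Lingo1 is on chromosome 9 from 56618475 to 56796468, minus strand. Its exonic level was 226, 212, 237 and 199 CPM in Mock 1 to 4 and 303, 222, 248 and 232 in Pilo 1 to 4, overlapping ranges with Pilo 1 apart at the top. The exonic log2 change was 0.20 (SE 0.10, adjusted p = 0.148), which passed only with the replicate block (adjusted p = 0.0127; 0.17 and adjusted p = 0.0316 in the Entrez table). Intronic Lingo1 was 153, 190, 198 and 202 CPM in Mock and 163, 206, 226 and 198 CPM in Pilo, a log2 change of 0.09 (SE 0.12, adjusted p = 0.554).

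Lingo2, a homologue of LINGO-1 with a gene that spans chromosome 4 from 35706647 to 36951747 on the minus strand, moved in introns in the opposite direction to Rtn4r. Its intronic level was 462, 415, 509 and 611 CPM in Mock 1 to 4 and 647, 653, 753 and 898 in Pilo 1 to 4. Every Pilo library lay above every Mock library, and in each group the library numbered 4 was highest. Intronic Lingo2 rose from 499 ± 83.6 to 738 ± 118 CPM (SD, n = 4), 1.48-fold, a log2 change of 0.56 (SE 0.13, adjusted p = 0.0029), and it passed in 8 of 8 fits without a library. The annotation places microRNA genes, pseudogenes and an snRNA gene within Lingo2, none of which overlaps its exons.

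Exonic Lingo2 was low, at 23.7, 15.8, 21.0 and 17.6 CPM in Mock and 24.2, 20.1, 18.3 and 22.1 CPM in Pilo, and the ranges overlapped. Its exonic log2 change was 0.12 (SE 0.13, adjusted p = 0.533). Lingo2 was the only one of the 7 genes with many more intronic than exonic reads, 9.04 to 16.7 per exonic read in Mock and 10.7 to 16.1 in Pilo. Exonic minus intronic change was -0.47 (SE 0.20, adjusted p = 0.112), which passed without Mock 4 (-0.61, adjusted p = 0.0226), without Pilo 1 (-0.60, 0.0405) and with the replicate block (-0.47, 0.00104).

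**Figure D3:**
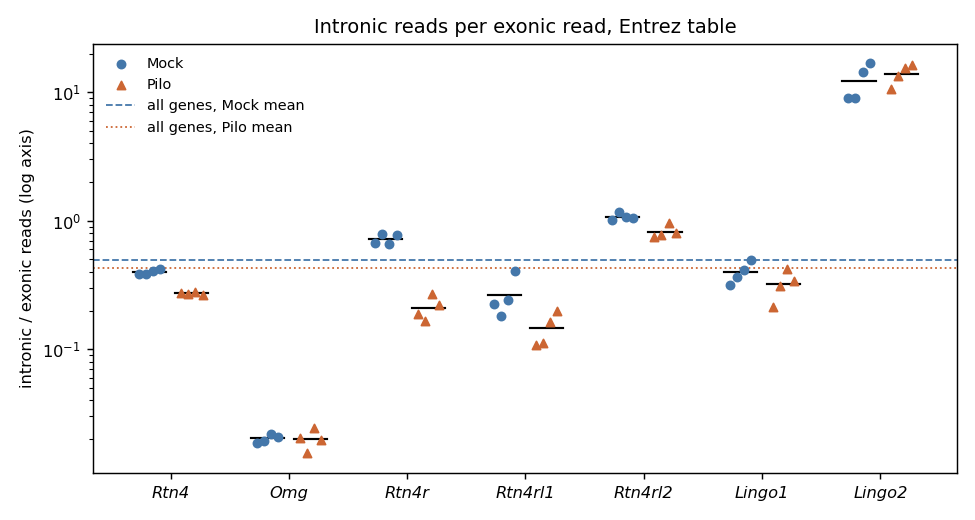
Intronic reads per exonic read of each gene in each library of the Entrez table, on a log axis; circles are Mock, triangles are Pilo, bars are group means, and lines are the all-gene means of each group. Rtn4r lies at 0.661 to 0.784 in Mock and 0.165 to 0.268 in Pilo, and Lingo2 is the gene with the highest ratios.

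Across the 6 genes other than Rtn4r, 1 passed the exonic test (Rtn4rl2, higher), beside 31.8% of the 19176 genes tested in the Ensembl table, 15.6% higher and 16.2% lower. In introns 2 of the 6 passed (Lingo2 higher, Rtn4 lower), beside 41.4% of 13318 genes, 19.6% higher and 21.9% lower. With exonic Entrez counts 1 of 6 passed, beside 34.0% of 14239 genes (16.5% higher and 17.5% lower), and in the comparison of the regions 1 of 6 passed (Rtn4), beside 26.2% of 13047 genes (13.5% with the exonic change above the intronic and 12.8% below). For calls in either direction, none of these shares of the 6 genes stood above that of all genes, and with 6 genes a single call is 1 of 6. Their median log2 change was 0.13 in exons (Ensembl table) and 0.11 in introns, beside 0.00 over all genes in both. The ranges of the groups did not overlap in introns for Rtn4 and Lingo2, 2 of the 6 genes, beside 37.0% of all genes tested, nor for Rtn4r, whose introns led to the choice. In exons 0 of the 7 genes had separate ranges in either table, beside 32.0% of genes in the Ensembl table and 33.3% in the Entrez table.

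Levels were also divided by the merged length of all annotated exons of a gene, which need not be the length of any transcript. That length joins 10 annotated transcripts for Rtn4, 8 for Lingo1 and 1 for Rtn4r, so the order depends on the annotation as well as on the reads. On this scale the receptor and its partner were among the higher of the 7 genes. Exonic CPM per kb in Mock was 46.4 for Lingo1, 43.9 for Rtn4r and 41.0 for Rtn4, and neighbours in this order overlapped between libraries. Omg (28.7), Rtn4rl2 (22.1), Rtn4rl1 (12.5) and Lingo2 (2.35) followed. In Pilo the order was Lingo1 (53.3), Rtn4 (41.7), Rtn4r (37.6), Rtn4rl2 (27.4), Omg (27.2), Rtn4rl1 (13.8) and Lingo2 (2.55). Intronic CPM per kb of intron in Mock was 5.86 for Rtn4rl2, 5.83 for Rtn4r and 5.59 for Rtn4, which overlapped, and in Pilo 6.38, 1.68 and 4.51.

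Genes with the pattern most like Rtn4r were ranked by Pearson's r of log2 CPM over the 8 libraries, as a description with no test. Because the groups lie far apart in Rtn4r introns, such an r is set largely by the difference between groups. Among 11176 genes ranked in introns, the highest r were those of Prrt3 (0.997, log2 change -1.34), Bnip3 (0.996, -1.15), Neurl1b (0.993, -2.32), Arhgef17 (0.992, -0.63) and Klhl25 (0.991, -1.22). Among 12851 genes ranked in exons of the Ensembl table they were Clcc1 (0.980, -0.29), Map3k8 (0.976, -0.34), Lbhd1 (0.967, -0.52), Ubox5 (0.965, -0.32) and Coa6 (0.964, -0.58). The 2 lists of 5 share no gene. The nearest coding neighbour of Rtn4r with many reads, Prodh, had an intronic log2 change of -0.19 (adjusted p = 0.599).

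Of 5 reticulons and other Nogo partners, 2 rose and 1 fell in exons, beside 15.6% and 16.2% of all genes (median log2 change 0.18). Rtn1, a reticulon of neuronal endoplasmic reticulum, rose by 0.31 on the log2 scale in exons (SE 0.08, adjusted p = 0.0117) and by 0.81 in introns (adjusted p = 8.40e-06), a larger rise in introns (exonic minus intronic -0.54, adjusted p = 0.00049). Rtn3 rose by 0.22 in exons of the Ensembl table (adjusted p = 0.0402) with an intronic log2 change of 0.02 (adjusted p = 0.869). Exonic Entrez counts of Rtn3 gave 0.19 (adjusted p = 0.0597), which did not pass. Rtn4ip1, which encodes a mitochondrial protein that binds Nogo, fell by 0.29 in exons (adjusted p = 0.0291) and by 0.75 in introns (adjusted p = 0.00048). The exonic minus intronic change passed the test as positive in 3 of 5 and as negative in 1 of 5 (Rtn1), beside 13.5% and 12.8% of all genes. The positive ones were Rtn3 (0.17, adjusted p = 0.0432), Rtn4ip1 (0.42, 0.0342) and Bace1 (0.50, 0.00142), which encodes a protease that reticulons bind; this call was lost in 7 of 8 fits without a library for Rtn3 (adjusted p up to 0.158), in 5 of 8 for Rtn4ip1 (up to 0.112) and in 0 of 8 for Bace1. The exonic call of Rtn3 was lost with no filter (adjusted p = 0.0901) and on leaving out Mock 1, Mock 2, Mock 4, Pilo 1, Pilo 3 or Pilo 4 (0.0542 to 0.104), and that of Rtn4ip1 with no filter (0.0618) and on leaving out Mock 1, Mock 3, Mock 4, Pilo 1 or Pilo 3 (0.0534 to 0.106).

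None of 9 other ligands and binding proteins of the receptors passed the exonic test (0 higher, 0 lower, median -0.04), beside 31.8% of all genes, and with the replicate block 3 passed as higher. In introns 1 of 8 tested rose and 2 fell, beside 19.6% and 21.9% of all genes. Ncan and Olfm1, which encode the proteoglycan neurocan and the secreted protein olfactomedin 1, fell by 0.67 and 0.58 on the log2 scale in introns (adjusted p = 0.000728 and 0.000134), with exonic log2 changes of -0.05 and -0.07 (adjusted p = 0.677 and 0.566). Adgrb1, an adhesion receptor that binds the Nogo receptors, rose by 0.36 in introns (adjusted p = 0.0262), a call lost without Mock 1 (0.0796), Mock 2 (0.0823), Pilo 3 (0.0982) or Pilo 4 (0.0676) and under exonic scaling (0.18, adjusted p = 0.289). Exonic minus intronic change passed as positive in 2 of 8, Ncan (0.59, adjusted p = 0.000149) and Olfm1 (0.48, 0.000798). It passed as negative in 1 of 8, Adgrb1 (-0.26, 0.00779), beside 13.5% and 12.8% of all genes. For each of these genes that call held in 8 of 8 fits without a library. Crtac1, whose product blocks NgR1, was not tested in introns for lack of reads.

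Of 8 co-receptors and other Nogo receptors, 6 had exonic reads enough to be tested and Pirb and Lingo4 did not. Only Tnfrsf19, which encodes TROY, a partner of NgR1, passed among these 6, rising by 0.24 on the log2 scale (SE 0.08, adjusted p = 0.0305) from 39.6 ± 2.27 to 46.9 ± 3.33 CPM (SD, n = 4). This 1 of 6 stands beside 15.6% of all genes higher in exons. The Tnfrsf19 call was lost with no filter (adjusted p = 0.0597) and without Mock 1 (0.0748), Mock 4 (0.0613), Pilo 1 (0.0595) or Pilo 3 (0.0544). In introns 1 of 4 tested fell, beside 21.9% of all genes: Lingo3, a homologue of LINGO-1, fell by 0.82 (adjusted p = 0.00021) with an exonic log2 change of 0.02 (adjusted p = 0.879), and its exonic minus intronic change of 0.81 passed the test (adjusted p = 0.000413). Ngfr, the p75 co-receptor, had an exonic log2 change of 0.73 that did not pass (adjusted p = 0.225).

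Downstream of the receptor, 12 of 24 genes of RhoA and ROCK signalling rose in exons and 2 fell, beside 15.6% and 16.2% of all genes (median log2 change 0.26, beside 0.00 over all genes). Rock2, a kinase activated by RhoA, rose from 202 ± 15.3 to 365 ± 5.29 CPM (SD, n = 4), a log2 change of 0.85 (SE 0.08, adjusted p = 6.36e-06), and rose by 0.90 in introns (adjusted p = 1.44e-05). Rock1, the other ROCK kinase, had an exonic log2 change of -0.19 that did not pass (adjusted p = 0.0619). Its intronic log2 change was -0.39 (adjusted p = 0.00875). Exonic Entrez counts of Rock1 gave -0.22 (adjusted p = 0.0303), a call lost in 6 of 8 fits without a library. Cfl2, an actin-severing cofilin, rose by 0.73 in exons (adjusted p = 7.13e-06) with an intronic log2 change of 0.16 (adjusted p = 0.533). Pak1, a kinase activated by Rac and Cdc42, rose by 0.68 in exons (adjusted p = 2.15e-05) and by 0.94 in introns (adjusted p = 7.28e-06). Rhob, a GTPase related to RhoA, rose by 0.55 (adjusted p = 0.00028), and Arhgdia, an inhibitor of GDP dissociation, rose by 0.48 (adjusted p = 0.000141). Arhgdia rose by 1.01 in introns (adjusted p = 3.58e-05). Rhoa itself had an exonic log2 change of 0.06 (adjusted p = 0.619). Its intronic log2 change was -0.32 (adjusted p = 0.0499) and its exonic minus intronic change 0.35 (adjusted p = 0.0387). These 2 calls of Rhoa held in only 2 of 8 and 1 of 8 fits without a library. The 2 that fell were Kalrn, an exchange factor for Rac and RhoA, by 0.47 (adjusted p = 0.000721), and Limk2, a kinase of cofilin, by 0.26 (adjusted p = 0.0218). The Limk2 call was lost without Mock 1 (0.0719), Mock 2 (0.066), Mock 4 (0.0566) or Pilo 4 (0.054). Exonic Entrez counts of Limk2 gave -0.29 (adjusted p = 0.0133), a call kept in 8 of 8 fits without a library. Intronic Limk2 changed by -0.29 (adjusted p = 0.0254), a call kept in 5 of 8. With exonic Entrez counts 10 of 23 genes of the list rose and 3 fell, beside 16.5% and 17.5% of all genes. In introns 8 of 23 rose and 6 fell, beside 19.6% and 21.9% of all genes, and the list holds both genes known to raise and genes known to lower RhoA activity. Exonic minus intronic change passed as positive in 5 of 23 and as negative in 5 of 23, beside 13.5% and 12.8% of all genes. The negative ones included Arhgdia (-0.56, adjusted p = 0.00128), Trio (-0.44, 0.000186) and Pak1 (-0.29, 0.00795). The positive ones included Cdc42 (0.45, 0.000575) and Dpysl3 (0.35, 0.0102). Each of these named calls held in 8 of 8 fits without a library. The exonic count of rises was 8 to 12 as each library was left out.

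**Figure D4:**
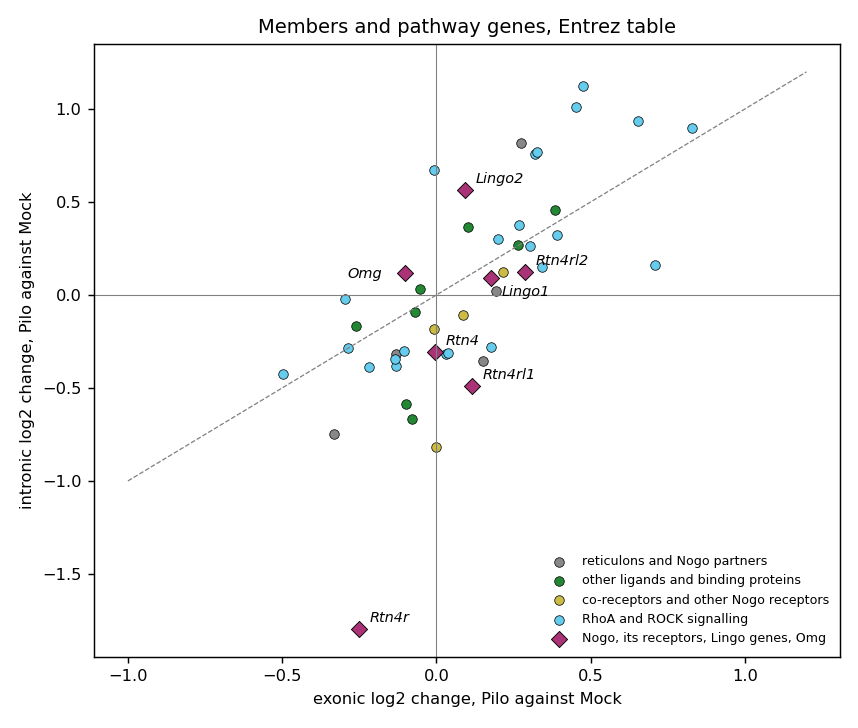
Exonic against intronic log2 change, Pilo against Mock, of the 7 genes (diamonds, labelled) and of the genes of 4 pathway lists (circles) in the Entrez table; the dashed line marks equal change. Rtn4r lies farthest below that line, at -0.25 in exons and -1.80 in introns.

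Markers of other cell types differed somewhat between the groups, and their calls are to be read beside the 15.6% of all genes higher and 16.2% lower in exons. The summed exonic level of 10 oligodendrocyte markers was 343 to 472 CPM in Mock and 437 to 784 in Pilo, with 1 of 10 passing the test as higher (Mbp, log2 change 0.64, adjusted p = 0.00591). Summed markers of inhibitory neurons were 120 to 156 CPM in Mock and 156 to 244 in Pilo, with 2 of 7 higher (Gad1 and Gad2). Summed astrocyte markers were 743 to 1097 and 894 to 1316 CPM, with 0 of 6 passing. Oligodendrocyte precursor markers were 26.8 to 51.6 and 31.3 to 70.0 CPM, with 1 of 5 higher (Olig2). Microglial markers were 12.3 to 18.8 and 14.2 to 22.5 CPM, with 0 of 6 passing. Endothelial markers were 3.84 to 12.9 and 5.68 to 36.8 CPM, with 0 of 4 passing. Median exonic log2 changes were 0.23 (microglia) to 0.96 (endothelial cells) over the lists of other cell types. The excitatory list had 0.22 and all genes 0.00. Summed excitatory markers were 2318 to 2952 CPM in Mock and 2607 to 3161 in Pilo, with 4 of 8 higher and 1 lower; Slc17a7 (log2 change -0.13, adjusted p = 0.287) and Camk2a (0.20, 0.206) did not pass. Omg and Lingo1 are also known from oligodendrocytes, and the part of other cell types in the values of the 7 genes was not tested.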

How the data were processed

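Polyadenylated nuclear RNA of 8 libraries (4 Mock, 4 Pilo) was analysed from the deposited tables, which hold raw read counts per gene, exonic in the Ensembl table and exonic and intronic in separate columns of the Entrez table. Per the submitters' processing notes, the genome build was mm10 and the named tools were HTSeq 0.11.2, STAR 2.7.1a, Trimmomatic 0.39, edgeR and R 4.1.1, without their roles. The annotation release, the strand setting and the way the authors separated intronic from exonic reads are not given here in the sources used, so reads of overlapping and antisense genes may be shared.

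The counts were tested as deposited with edgeR 4.0.16 in R 4.3.3 (limma 3.58.1), by the robust quasi-likelihood F-test after TMM normalization. Genes passed filterByExpr at a minimum count of 10, and p-values were adjusted by Benjamini-Hochberg over all genes tested, with a threshold of 0.05. Every adjusted p in the text is from this test unless another tool is named. Standard errors are the fitted coefficient over the root of F. The difference between exonic and intronic change was the region by treatment interaction, with the library as a covariate and TMM per region. CPM values use TMM-scaled totals of their own table and region.

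Alternatives were DESeq2 1.42.0, RLE size factors, no filter, a minimum count of 50, the replicate number as a block, leaving out each library, and 1 scaling factor per library. A further alternative, exonic scaling, fitted introns with exonic TMM factors on the summed exonic and intronic totals of each library. The scripts were tested on simulated data. Within a group, libraries varied beyond counting noise (chi-square of 9.10 to 40.8 per degree of freedom) and each was used as a sample. Libraries with the same number deviated together from their group means. Pearson r was 0.372 to 0.401 in exons of the Ensembl table and 0.437 to 0.490 in exons of the Entrez table. In introns it was 0.318 to 0.470. The main fits did not use this pairing, and only the replicate block, run as an alternative, took the numbers as pairs. The pairing comes from these correlations and not from the labels.

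The members and the gene lists were chosen with earlier results of these data known. Named genes are the 7 members, up to 5 genes per pathway list with the smallest exonic p past the test, the 5 genes most like Rtn4r per region (mean count of at least 50, no Gm or Rik symbols) and defining markers. Other list genes were named after their values were seen. A marker under this rule is not reported here. Gene models are from GENCODE vM21 and promoter windows from RefSeq, both on GRCm38, the build called mm10.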

Additional observations from a re-analysis of the deposited data

How the results depend on the processing

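Over the alternatives run, 0 of the log2 changes of the 7 genes that had passed the test turned direction. The number of the 6 tested genes past the threshold was 1 in exons of the Ensembl table, 2 with the replicate block and 0 to 1 as each library was left out; 1 in exons of the Entrez table, 2 with the block and 0 to 1; 2 in introns and 1 to 3 as each library was left out; and 1 for exons against introns, 2 under DESeq2, 3 with the block, 3 with 1 scaling factor per library and 1 to 2 as each library was left out. The block (replicate pairing) changed no other call of the 6 genes than those given with Lingo1, Rtn4rl1 and Lingo2, and moved the count over all genes from 3420 to 5126 for exons against introns.

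Scaling introns by exonic TMM factors, on summed exonic and intronic totals, moved the median intronic log2 change of all genes to -0.19. The calls went from 2609 higher and 2911 lower to 1425 and 4553. Rtn4r then stood at -1.98, Rtn4rl1 at -0.68 (adjusted p = 0.0158), and Lingo2 still passed the test (adjusted p = 0.0418). With 1 scaling factor per library the median exonic minus intronic change was 0.26, 6228 genes passed in place of 3420 (5822 higher and 406 lower, against 1756 and 1664), Rtn4r stood at 1.79, and Rtn4rl1 (0.84, adjusted p = 0.0152) and Rtn4rl2 (0.40, adjusted p = 0.00353) passed. Omg was not tested in introns at a minimum count of 50. The intronic change of Omg, at 29 to 49 reads per library, has the highest SE of the 7 (0.22). The causes of these dependences were not tested.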
